A study of Mus musculus with 16 samples.

Results

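At 522 sites in tumours of a mouse model of clear cell sarcoma, the EWSR1::ATF1 fusion was called at a promoter of a protein-coding gene while no peak of RNA polymerase II (RNAPOL2) touched the site. These sites were selected on measured values, namely the peak lists for the V5-tagged fusion and for RNAPOL2. A V5 peak was kept if it overlapped the window within 3 kb of a transcription start site (TSS) of a protein-coding gene in GENCODE vM21 (mm10) and shared no base with any RNAPOL2 peak, whether or not it carried a peak of H3K27ac. The V5 list held 10665 peaks, of which 3595 (33.7%) lay at coding promoters, so the 522 sites were 14.5% of the coding-promoter peaks and 4.89% of all V5 peaks. The deposited V5 list is shorter than the total of binding sites that the study describes, and how it was narrowed is not stated, so these shares refer to listed peaks and a promoter without a listed V5 peak is not shown to be unbound. The sites are called polymerase-free fusion peaks here, which refers to the peak lists only. Shares of fusion binding and of polymerase are therefore fixed by the selection and are given as a description without a test.

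The tumours carried EWSR1::ATF1, the human fusion oncogene that drives clear cell sarcoma, as a V5-tagged cDNA at the Rosa26 locus behind a loxP-flanked stop cassette. The mice were of 129/SvJ and C57Bl/6 background, and the fusion was switched on by TATCre, a soluble Cre recombinase, injected into the hindlimb at 4 weeks of age, so that any limb cell reached by the protein could express it from the Rosa26 promoter. All 16 samples were tumours of the same genotype, EWSR1::ATF1, and they differed only in what was precipitated: 4 with anti-V5, 4 with an antibody to phosphorylated RNAPOL2, 4 with anti-H3K27ac and 4 as Input. There was no untreated or fusion-free group. Each antibody was represented by 1 list of peaks without values for single samples, so there were no replicates to compare, p-values count peaks or genes rather than tumours, neighbouring peaks are not independent, and intervals cover counting error only. The RNAPOL2 list held 20375 peaks and the H3K27ac list 27552, and read depth per sample is unknown from them.

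The tumours were whole tissue. Of all 21938 protein-coding genes, 53.5% had an RNAPOL2 peak and 58.6% an H3K27ac peak within 3 kb of a TSS. Among markers of cell types that such a tumour could hold, RNAPOL2 and H3K27ac reached promoters of 6 and 7 of 22 melanocyte genes, 15 and 18 of 31 neural crest genes, 5 and 4 of 25 skeletal muscle genes, 5 and 7 of 11 endothelial genes, 4 and 10 of 14 immune genes, and 6 and 10 of 12 fibroblast genes. A mark that is absent from most cells and a mark that is weak in every cell cannot be told apart in such lists, and a missing RNAPOL2 peak means only that the enrichment did not reach the caller's threshold.

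ATF1 belongs to the ATF/CREB family of basic leucine zipper factors, which bind as dimers to the cAMP response element TGACGTCA and are best known at CpG-rich gene starts, where they switch on genes in response to cAMP. AP1, a dimer of FOS and JUN proteins of the same structural family, prefers TGAGTCA, which lacks the central base pair and is typical of distal enhancers. RNAPOL2 marks genes that are being transcribed, whereas H3K27ac marks active promoters and enhancers alike, and many genes carry internal TSSs of minor or non-coding transcripts far from their main start.

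The sequences below are shown because they carry the binding motifs that separated these peaks from the other promoter peaks. All are from GRCm38 (mm10), plus strand, 5′ to 3′, with the motif in capitals, and none lies in an annotated exon. The motifs searched were TGACGTCA, the canonical ATF/CREB motif; TGANNTCA other than TGACGTCA, its variants; TGAGTCA, the AP1 motif; and strings of more than 4 TGA or TCA units with gaps of at most 5 bp. Both strands were read in the central 500 bp of each peak, and a string can overlap the other motifs. The canonical motif stood at the TSS of the centromere gene Cenpw and in introns of the receptor phosphatase gene Ptpro and the adenylyl cyclase gene Adcy3.
Cenpw (chr10:30200566-30200623): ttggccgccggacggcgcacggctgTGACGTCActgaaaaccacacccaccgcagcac
Ptpro (chr6:137413930-137413987): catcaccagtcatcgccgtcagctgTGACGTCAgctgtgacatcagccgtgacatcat
Adcy3 (chr12:4201655-4201712): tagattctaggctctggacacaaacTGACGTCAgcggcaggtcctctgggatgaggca
The most frequent variant was TGACATCA, which reads TGATGTCA on the other strand.
Gabbr2 (chr4:46722983-46723040): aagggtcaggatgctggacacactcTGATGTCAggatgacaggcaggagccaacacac
Tmprss11f (chr5:86630602-86630659): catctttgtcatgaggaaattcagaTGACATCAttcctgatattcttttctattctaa
Ttc7b (chr12:100330567-100330624): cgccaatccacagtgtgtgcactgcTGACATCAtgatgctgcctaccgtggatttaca
The AP1 motif, which reads TGACTCA on the other strand, was held by 5 of the 20 highest-scoring peaks, 4 of which are shown.
Pcca (chr14:122875445-122875501): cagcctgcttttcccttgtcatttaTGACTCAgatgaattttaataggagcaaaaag
Nek10 (chr14:14859162-14859218): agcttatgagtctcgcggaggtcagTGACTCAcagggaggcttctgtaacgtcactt
Ccdc73 (chr2:104864561-104864617): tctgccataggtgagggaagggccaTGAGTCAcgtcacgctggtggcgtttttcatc
Gm16223 (chr5:42067823-42067879): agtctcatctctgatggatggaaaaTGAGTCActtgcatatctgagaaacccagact
Strings of TGA or TCA units are drawn with each unit in capitals; the Scn10a string had 8 units, the Ptpro string 7, and those of Atg7 and Mpped1 5 each.
Scn10a (chr9:119717255-119717337): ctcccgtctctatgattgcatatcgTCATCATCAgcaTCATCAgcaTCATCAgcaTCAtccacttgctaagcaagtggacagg
Ptpro (chr6:137413923-137414011): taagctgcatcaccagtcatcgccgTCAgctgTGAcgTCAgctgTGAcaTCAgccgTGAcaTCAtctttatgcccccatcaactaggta
Atg7 (chr6:114657909-114657979): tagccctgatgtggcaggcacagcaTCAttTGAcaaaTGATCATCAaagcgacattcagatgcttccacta
Mpped1 (chr15:83837368-83837435): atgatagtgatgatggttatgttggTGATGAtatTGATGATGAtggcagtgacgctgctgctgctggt

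The position of the polymerase-free fusion peaks was measured to ask what kind of promoter they occupied. Most did not cover a start site. A coding TSS lay inside 122 of the 522 peaks (23.4%), compared with 84.5% of the 3073 fusion peaks that overlapped RNAPOL2 at coding promoters (odds ratio 0.0559, 95% interval 0.0446 to 0.0700, two-sided Fisher's exact test, adjusted p = 2.38e-169). The median distance from the middle of the peak to the nearest coding TSS was 1478 bp, compared with 82 bp. The middle lay within 500 bp of that TSS in 26.6% of the polymerase-free peaks and in 85.1% of the others. The middle fell in an intron in 64.8% of the polymerase-free peaks, in an exon in 14.9% and outside coding genes in 20.3%. For the peaks with RNAPOL2 these shares were 21.2%, 50.1% and 28.6%. The classes were split by overlap with RNAPOL2 inside the same TSS windows, so these contrasts in position are tied to the selection. The test of TSS coverage is therefore to be read as a description.

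**Figure D1:**
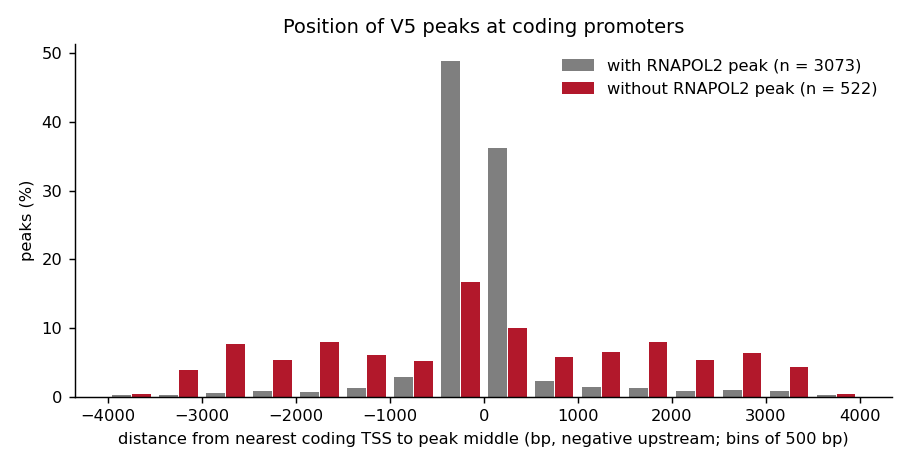
Distance in bp from the nearest coding TSS to the middle of the peak, negative upstream, in bins of 500 bp, as the percent of fusion peaks with RNAPOL2 (grey, n = 3073) and without it (red, n = 522). The 2 bins next to the TSS held 48.9% and 36.2% of the peaks with RNAPOL2, but 16.7% and 9.96% of those without, which spread across the whole window.

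Fewer than 50% of the peaks lay near the annotated 5′ end of a gene. The annotated 5′ end of a coding gene lay within 3 kb of 199 peaks (38.1%), compared with 86.1% of the fusion peaks with RNAPOL2. Only 329 peaks (63.0%) reached the TSS of a transcript annotated as protein-coding, compared with 96.3%. The other 193 reached only TSSs of transcripts of coding genes that are not annotated as protein-coding. The nearest was a processed transcript in 98, a retained-intron transcript in 83 and a transcript subject to nonsense-mediated decay in 12. The label of coding promoter thus held by annotation, but for 323 of the 522 peaks it rested on an internal TSS and not on the annotated 5′ end of the gene. A further 48 peaks (9.20%) also reached a TSS of another gene type.

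Most of the genes carried polymerase elsewhere, as did more than 50% of all coding genes. The 522 peaks reached 472 coding genes, which was 2.15% of all coding genes, whereas any V5 peak reached 16.6%. Of these 472 genes, 318 (67.4%) had an RNAPOL2 peak in some promoter window, compared with 53.5% of all coding genes, a difference that was not tested, and 142 (30.1%) had none in a promoter window or in the gene body. Another fusion peak, which did overlap RNAPOL2, also reached 133 of the genes (28.2%). By peak, RNAPOL2 lay in the same promoter window in 132 cases (25.3%), in another promoter window of the nearest gene in 226 (43.3%), in the gene body only in 13 (2.49%) and nowhere in the gene in 151 (28.9%). The nearest RNAPOL2 peak was a median of 18645 bp away, within 1 kb of 54 peaks (10.3%) and within 50 kb of 68.4%. These classes differed in where the fusion sat: the peak was near the 5′ end of a gene in 64.4% of the same-window class and 59.6% of the class without RNAPOL2 in the gene, but in 6.64% of the class with RNAPOL2 at another promoter window. The classes are defined by which promoter windows of the gene hold RNAPOL2, so this difference is tied to their definition. It was not tested.

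The paper reports that RNAPOL2 and H3K27ac enrichment were correlated across loci. The contrast in H3K27ac with the fusion peaks with RNAPOL2 is therefore tied to the split by RNAPOL2 and is to be read as a description. H3K27ac itself was not part of the selection rule. It overlapped 358 of the 522 peaks (68.6%), compared with 99.7% of the fusion peaks with RNAPOL2 (odds ratio 0.00713, 95% interval 0.00373 to 0.0136, adjusted p = 5.37e-133) and 53.1% of the 5161 distal fusion peaks without RNAPOL2 (odds ratio 1.93, 1.59 to 2.34, adjusted p = 1.81e-11; Fisher's exact test for both). Distal means further than 3 kb from a TSS of any gene type. The share of acetylated peaks was therefore intermediate and differed from both. Where peaks that covered a TSS were left out on both sides, a restriction added after the data were seen, the shares were 67.8% and 98.7%. The acetylated polymerase-free peaks lay under weaker H3K27ac peaks, with a median H3K27ac score of 192 compared with 1640 at the fusion peaks with RNAPOL2 and 150 at the distal ones. The score is a whole number given with each deposited peak, its scale is not stated, and it is compared only within a list.

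Acetylation varied with the polymerase class and with the V5 score. The share with H3K27ac was 81.8% where RNAPOL2 lay in the same window, 65.9% where it lay at another promoter window of the gene, 76.9% where it lay only in the gene body, and 60.3% where the gene had none. With the peaks divided into 4 nearly equal parts by V5 score, from the lowest to the highest, 65.6%, 60.6%, 62.5% and 85.5% of the peaks overlapped H3K27ac. The median V5 score was 241 with H3K27ac and 185 without, and 20.4% and 3.05% of the peaks were among the 2000 highest scores of the whole V5 list. Of the 164 peaks without H3K27ac, 22 (13.4%) had an H3K27ac peak within 1 kb and 83 (50.6%) within 12 kb, at a median distance of 11590 bp.

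**Figure D2:**
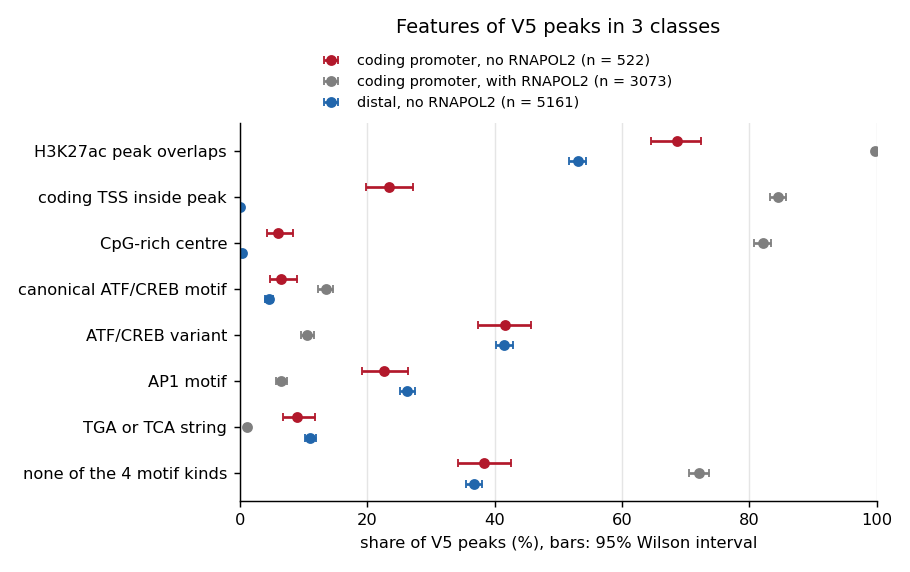
Share of V5 peaks with each feature, in percent, for polymerase-free fusion peaks at coding promoters (red, n = 522), fusion peaks with RNAPOL2 at coding promoters (grey, n = 3073) and distal fusion peaks without RNAPOL2 (blue, n = 5161); bars are 95% Wilson intervals. The red points lie beside the blue ones for the 4 motif kinds and between the grey and blue ones for H3K27ac.

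The motif content was compared to ask which of the fusion's binding sequences these promoters used. TGANNTCA variants were held by 217 peaks (41.6%), compared with 10.6% of the fusion peaks with RNAPOL2 (odds ratio 6.0, 95% interval 4.87 to 7.39, adjusted exact p = 6.63e-59). TGAGTCA was held by 118 (22.6%), compared with 6.48% (odds ratio 4.22, 3.28 to 5.42, adjusted exact p = 7.14e-26). Strings were held by 47 (9.0%), compared with 1.20% (odds ratio 8.12, 5.22 to 12.6, adjusted exact p = 8.49e-19). The canonical TGACGTCA went the other way, at 34 peaks (6.51%) compared with 13.5% (odds ratio 0.447, 0.311 to 0.643, adjusted p = 4.91e-06; Fisher's exact test for all 4). None of the 4 motif kinds was found in 38.3% of the polymerase-free peaks and in 72.1% of the others.

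The differences varied with the position and the base composition of the peaks. Among peaks that covered no TSS, the odds ratios for variants, TGAGTCA and strings were 2.87, 1.93 and 3.25, and among peaks that were not CpG-rich they were 2.21, 1.66 and 2.32. Near the 5′ end of a gene they were 5.98, 5.29 and 12. These 9 values all passed the test, in comparisons added after the data were seen. The lower share of TGACGTCA did not hold among peaks without a TSS (odds ratio 0.633, adjusted p = 0.314) or near gene 5′ ends (0.645, adjusted p = 0.136), and held among peaks that were not CpG-rich (0.535, adjusted p = 0.0314; Fisher's exact test).

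Against the distal fusion peaks without RNAPOL2, no motif kind passed the test. Variants were held by 41.6% and 41.5% (odds ratio 1.00, 95% interval 0.835 to 1.20, adjusted exact p = 1.00), TGAGTCA by 22.6% and 26.2% (0.821, 0.663 to 1.02, adjusted p = 0.112) and strings by 9.0% and 11.1% (0.792, 0.580 to 1.08, adjusted p = 0.223). TGACGTCA was held by 6.51% and 4.57% (1.45, 1.00 to 2.11, adjusted p = 0.0847, Fisher's exact test), and this difference passed the threshold under 5 of the alternative settings, with odds ratios from 1.58 to 1.92. With only the upper 50% of RNAPOL2 peaks by score, the odds ratio of the variants turned to 0.826 (adjusted p = 0.0152), and TGAGTCA (0.732, adjusted p = 7.27e-04) and strings (0.649, adjusted p = 0.00209; Fisher's exact test for all 3) also passed. The intervals allow differences of the size of their bounds, so the values do not show that the classes are alike.

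Coding-promoter sequence without fusion or polymerase gave the background. In 438054 windows of 500 bp from coding promoters that held neither V5 nor RNAPOL2, TGACGTCA occurred in 0.319%, the variants in 22.6%, TGAGTCA in 8.08% and strings in 3.87%. The polymerase-free fusion peaks held these motifs 20.4, 1.84, 2.80 and 2.33 times as often. For the fusion peaks with RNAPOL2 the ratios to the windows were 42.2, 0.469, 0.801 and 0.311. The odds ratios for variants, TGAGTCA and strings between these classes thus combine shares above the background with shares below it. In the 26080 of these windows that overlapped H3K27ac, the shares were 0.399%, 18.2%, 8.83% and 2.44%. These ratios were not tested. Among the variants, TGACATCA was at 14.8% of the peaks and 2.54% of the windows (5.80 times), TGACCTCA at 9.77% (3.25 times) and TGAAGTCA at 8.05% (2.68 times), whereas TGAACTCA was at 3.26%, or 0.416 times its share of the windows. Each form was counted with its reverse complement. In whole peaks, TGACGTCA lay closest to the middle, at a median of 37 bp, with 76.9% of 39 peaks within 100 bp. The medians for variants, TGAGTCA and strings were 104.5, 138 and 116.5 bp.

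Within the polymerase-free fusion peaks, motif content did not differ detectably between acetylated and non-acetylated peaks. TGACGTCA was held by 5.59% with H3K27ac and 8.54% without (odds ratio 0.634, 95% interval 0.312 to 1.29, adjusted exact p = 0.323), variants by 40.8% and 43.3% (0.902, 0.621 to 1.31, adjusted p = 0.759), and TGAGTCA by 22.6% of both (1.00, 0.645 to 1.56, adjusted p = 1.00). CpG-rich sequence was found in 5.59% and 6.71% (0.823, 0.385 to 1.76, adjusted p = 0.777; Fisher's exact test). With only the upper 50% of RNAPOL2 peaks by score in the selection, the odds ratio for CpG-rich sequence turned to 2.40 (adjusted p = 0.00493, Fisher's exact test).

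Base composition set the polymerase-free peaks far from the other promoter peaks. A central 500 bp was called CpG-rich where its GC content was above 50% and its ratio of observed to expected CpG above 0.6. This held for 31 of the 522 peaks (5.94%), compared with 82.1% of the fusion peaks with RNAPOL2 (odds ratio 0.0138, 95% interval 0.00946 to 0.020, adjusted p = 6.61e-262) and 0.446% of the distal ones (odds ratio 14.1, 8.16 to 24.4, adjusted p = 1.01e-18; Fisher's exact test). The median GC content was 46.3% and the median CpG ratio 0.284, compared with 65.2% and 0.873, and with 45.0% and 0.268 at the distal peaks. Of the 31 CpG-rich peaks, 26 covered a coding TSS and 20 overlapped H3K27ac. Distal peaks cover no TSS by definition, so the odds ratio against them partly restates the window rule. It does not show a difference in composition away from start sites.

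**Figure D3:**
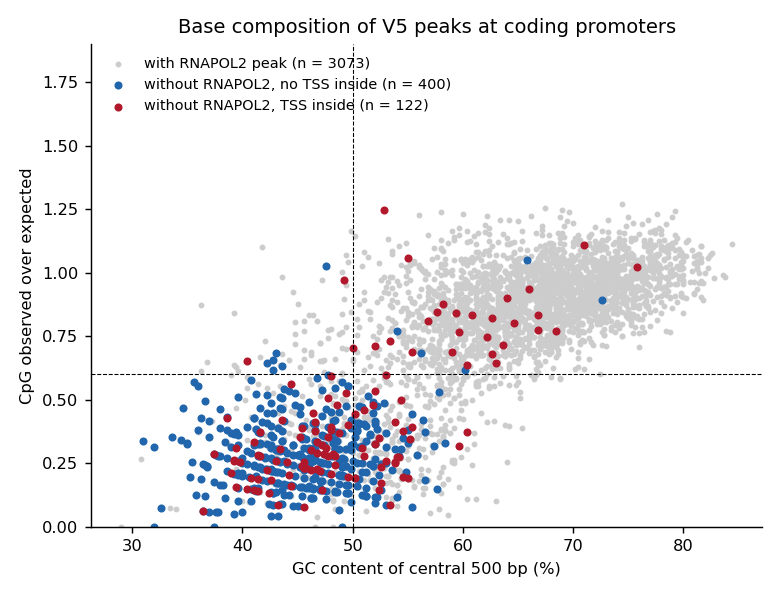
GC content in percent against the ratio of observed to expected CpG in the central 500 bp of each fusion peak at a coding promoter, with RNAPOL2 (grey, n = 3073) and without it, with a coding TSS inside the peak (red, n = 122) or not (blue, n = 400); dashed lines mark 50% and 0.6. Most peaks without RNAPOL2 lie in the CpG-poor corner, and 26 of the 31 in the CpG-rich corner are red.

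V5 scores, which belong to the selection, were of middling height. The median was 218, with quartiles of 129.8 and 418 and a range from 28 to 6481, compared with medians of 163 at the fusion peaks with RNAPOL2 and 251 at the distal ones. The 2000 highest scores of the V5 list held 78 of the 522 peaks (14.9%). Of the 20 highest peaks, 19 overlapped H3K27ac, 11 had their middle in an intron, 8 lay near the 5′ end of a gene and 5 covered a TSS. Their genes had no RNAPOL2 peak in 9 cases and an RNAPOL2 peak at another promoter window in 8.

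The highest score, 6481, was that of a peak in an intron of Galntl6 (chr8:57957791-57959930), a gene of the family that starts O-linked glycosylation. It was the 37th of all V5 peaks, and the middle lay 3703 bp downstream of an internal coding TSS and held none of the 4 motif kinds. The nearest RNAPOL2 peak was 1670 bp away. RNAPOL2 was called in the body of Galntl6 but at none of its promoter windows. Gabbr2, a subunit of the GABA-B receptor, followed with a score of 4948 at chr4:46721761-46723820 and 2 variants in the centre, 1 of which is printed above. Casq2, the calcium store protein of cardiac muscle, had 2 peaks, of which the higher scored 4055 (chr3:102144771-102146280). Its longest string had 10 units, and an RNAPOL2 peak lay 850 bp from it, outside the gene and its promoter windows. Nek10, a kinase of the NIMA family, scored 3865 with a TGAGTCA motif, and its nearest RNAPOL2 peak was 154490 bp away. Mlip, a lamin-interacting protein of muscle, scored 3550 in an intron and was reached by 3 of the peaks. The nearest RNAPOL2 peak to the highest of these was 3420 bp away, and RNAPOL2 was called at another promoter window of the gene.

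Ptpro brought the motif kinds together. Its intronic peak (score 2241, chr6:137413361-137414570) held TGACGTCA, 2 variants and the string of 7 units within the printed stretch, overlapped H3K27ac, and lay 234360 bp from the nearest RNAPOL2 peak. Scn10a, a sodium channel of sensory neurons, scored 2131 with its string of 8 units and H3K27ac, 137540 bp from RNAPOL2. Nrbf2, a factor of autophagy, was the only one of the 20 with RNAPOL2 in the same window, 1210 bp away, and its H3K27ac score of 2604 was the highest of the 20. The 20 highest also held Pcca (3933), Ccdc73 (3253), Dynap and Gm16223 (2004 each), Ankfn1 (1981), Srfbp1 (1920), Aaed1 (1897), Lmo7 (1808), Magohb (1764), 3110082I17Rik (1603), a peak shared by Fastkd2 and Mdh1b (1563), and Kif1b (1465).

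Several genes held more than 1 of these peaks. This was the case for 52 of the 472 genes (11.0%). Pcca, which encodes a subunit of mitochondrial propionyl-CoA carboxylase, held 7, with scores from 94 to 3933, and 4 of them overlapped H3K27ac. All 7 lay at internal TSSs of non-coding transcripts or of transcripts subject to decay, and RNAPOL2 was called at another promoter window of the gene. Peaks of 1 gene share that gene and are not independent.

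**Figure D4:**
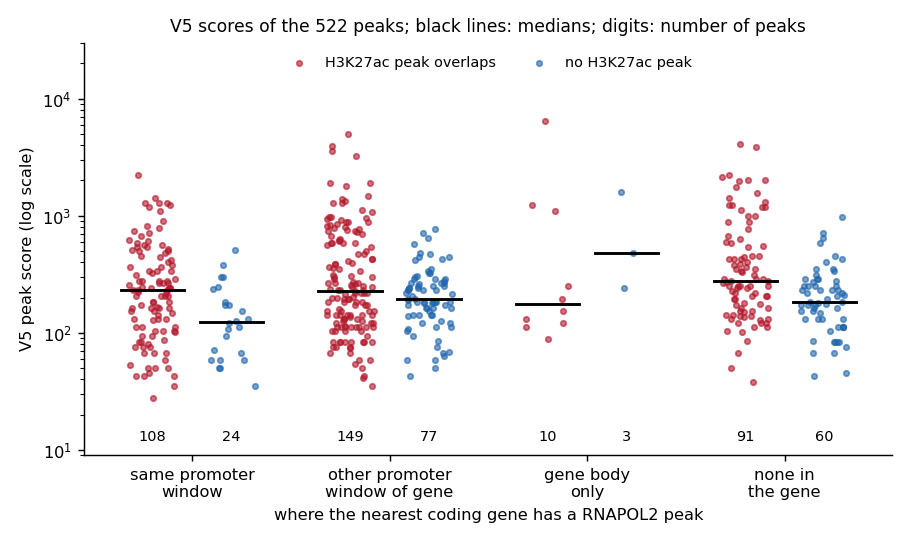
V5 score on a log scale of each polymerase-free fusion peak, by where the nearest coding gene has an RNAPOL2 peak and by overlap with H3K27ac (red) or not (blue); black lines are medians and digits are numbers of peaks. Scores above 2000 are found only in red, and the medians of all peaks in the 4 classes were 206.5, 218, 241 and 241.

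A small group sat at gene starts while no RNAPOL2 peak lay anywhere in the gene. It held 34 peaks that covered a TSS near the annotated 5′ end of the gene, a group singled out after its values were seen. Of these, 23 overlapped H3K27ac, 15 were CpG-rich, 8 held TGACGTCA, 7 a variant and 5 TGAGTCA, and the nearest RNAPOL2 peak was more than 50 kb away for 21. Among all 522 peaks, 68.6% overlapped H3K27ac, 5.94% were CpG-rich, 6.51% held TGACGTCA, 41.6% a variant and 22.6% TGAGTCA. RNAPOL2 lay within 50 kb of 68.4% of the 522. The scores of the 34 peaks ranged from 38 to 2004 with a median of 253. Magohb, a component of the exon junction complex, scored 1764 with H3K27ac and TGACGTCA, with the middle of the peak 33 bp from the TSS and RNAPOL2 94010 bp away. The peak at the start of Fastkd2 and Mdh1b scored 1563, overlapped H3K27ac, held no motif, and lay 297010 bp from RNAPOL2. Cenpw, a protein of the centromere, scored 709 at chr10:30200221-30200890 with TGACGTCA 39 bp from the middle, and lay 399420 bp from the nearest RNAPOL2 peak and 399240 bp from the nearest H3K27ac peak.

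TGACGTCA peaks were few and mostly at start sites when they scored high. After Ptpro and Magohb, the highest were Cmss1 (1243), 5730480H06Rik (1193) and Cenpw (709). The middle of each of these 3 lay within 32 bp of the nearest TSS, and H3K27ac overlapped Cmss1 and 5730480H06Rik.

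Peaks without H3K27ac scored lower. The highest was 3110082I17Rik (score 1603), which covered a TSS at the gene's 5′ end and lay 17060 bp from H3K27ac. Elavl4, a neuronal RNA-binding protein, followed at 984 with a string, and its nearest RNAPOL2 peak was 546030 bp away. Chchd3 (769), which shapes mitochondrial cristae, held a variant. Cul2 and Cenpw scored 709 each, Snx29 651, Gm10553 642, Tcp10b 579, Sgk1 568 and Cpq 509. Sgk1, a kinase induced by serum and glucocorticoids, and Chchd3, Cul2 and Snx29 had RNAPOL2 at another promoter window, and Cpq had it in the same window 1140 bp away.

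The gene was then taken as the unit to ask whether genes with a V5 peak also held H3K27ac where RNAPOL2 was missing. Each peak was counted in any promoter window of the gene, so the V5 and H3K27ac peaks need not overlap or share a TSS. Of the 10200 coding genes without an RNAPOL2 peak in any promoter window, 154 had a listed V5 peak at a promoter. H3K27ac was found at promoters of 116 of these (75.3%), compared with 1287 of the 10046 genes without a listed V5 peak (12.8%; odds ratio 20.8, 95% interval 14.3 to 30.1, adjusted p = 7.58e-68, Fisher's exact test). Among genes with at least 2 annotated transcripts, a restriction added after the data were seen, the odds ratio was 15.9. Of all 472 genes, 434 (91.9%) had an H3K27ac peak at a promoter, compared with 58.6% of all coding genes. The 472 included 318 genes with RNAPOL2 at a promoter, and the number of TSSs per gene was not matched. This difference was not tested.

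Members of the cAMP pathway and lineage markers were counted from lists, read beside the 2.15% of all coding genes. Of 53 cAMP pathway genes, 4 (7.55%) were reached by a polymerase-free fusion peak and 31 (58.5%) by any fusion peak, which reached 16.6% of all coding genes. The 4 were the adenylyl cyclases Adcy3 (score 265, the printed TGACGTCA in an intron) and Adcy7 (114), the regulatory subunit of protein kinase A Prkar1a (207) and the coactivator Ppargc1a (230). The peaks of Adcy3, Adcy7 and Prkar1a overlapped H3K27ac. RNAPOL2 lay in the same promoter window for Prkar1a and at another promoter window of the gene for Adcy3 and Adcy7. The Ppargc1a peak covered the TSS with neither mark. RNAPOL2 was 547520 bp away there and H3K27ac 13830 bp away. Of 22 melanocyte genes, 1 was reached (4.55%): Dct, an enzyme of melanin synthesis, with a score of 218 in an intron, no H3K27ac and no RNAPOL2 in the gene. The nearest TSS of Dct was that of a retained-intron transcript, away from the annotated 5′ end. Any fusion peak also reached only 1 of the 22. Of 31 neural crest genes, 0 were reached by a polymerase-free fusion peak and 5 (16.1%) by any fusion peak.

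The limits of the selection ran through closely similar peaks. Just inside the 3 kb limit lay peaks of Stox2 (2997 bp from the TSS to the peak, score 565), Pde1c (2990 bp, 289) and Sema4f (2985 bp, 76), and just outside lay peaks near Lmo7 (3023 bp, 622), Dpt (3044 bp, 680) and Tmprss11g (3049 bp, 94). The peaks nearest to RNAPOL2 that shared no base with it were at Slpi (80 bp away, score 232), Hgf (90 bp, 246) and Creb5 (200 bp, 163). Those left out with the fewest shared bases were at Rassf5 (60 bp shared, score 301), Hoxa7 (120 bp, 59) and Lnx2 (160 bp, 153).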

How the data were processed

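The authors precipitated chromatin of mouse tumours with anti-V5, anti-RNAPOL2 and anti-H3K27ac and sequenced it beside Input. Per the labels and the study's methods, reads were aligned to mm10 with BWA-MEM 0.7.10-r789, duplicates were removed with samtools, peaks were called with MACS2 2.2.6 (broad for H3K27ac) and ENCODE denylisted regions were discarded. The deposited lists give a start, an end and a score for each peak, and the scale of this deposited score is not stated. The 4 labelled samples of V5 and of RNAPOL2 are fewer than the methods name, and how samples were pooled for the peak lists is not stated. Depth per sample and its effect on calls are unknown.

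Overlap meant at least 1 shared base. TSSs of all transcripts of protein-coding genes came from GENCODE vM21, and sequence from the RefSeq GRCm38.p6 genome. Motifs and CpG content were read in the central 500 bp. Shares have 95% Wilson intervals, and 18 two-sided Fisher's exact tests were adjusted together by Benjamini-Hochberg with a threshold of 0.05. Odds ratio intervals used the normal approximation on the log scale. V5 scores and RNAPOL2 distances were not tested. Alternatives covered the promoter window, transcript type, polymerase distance, upper 50% of scores, H3K27ac overlap and motif window.

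The peaks, gene lists and motifs were chosen with earlier results of these data known. Named genes were those of the 20 highest V5 scores, the 10 highest without H3K27ac, the 10 highest without RNAPOL2 in the gene, the 5 highest with TGACGTCA and with a string, all those of the melanocyte, neural crest and cAMP lists, the 3 at each side of each limit, and up to 4 of each other list; sequences were picked after values were seen. Functions were tested on simulated data. Python 3.11.15, pandas 2.3.3, NumPy 2.4.6, SciPy 1.17.1, pysam 0.24.0, samtools 1.23.1 and matplotlib 3.10.9 were used.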

Additional observations from a re-analysis of the deposited data

How the results depend on the processing

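No paired analysis was possible because each deposited list pools its samples and no value carries a replicate number; for the same reason no replicate could be left out. Each alternative changed 1 choice, and 141 planned and 18 added values stayed alike: tested values kept their direction and side of the threshold, the number of peaks stayed within 1.5 times, and shares moved by less than their counting interval. The count of polymerase-free fusion peaks was 253 with a 1 kb and 770 with a 5 kb window, 329 with TSSs of protein-coding transcripts only, 833 with the upper 50% of RNAPOL2 peaks by score and 256 with the upper 50% of V5 peaks. Their overlap with H3K27ac was 64.1% without RNAPOL2 anywhere in the windows reached, 79.2% with the upper 50% of RNAPOL2, 73.8% with the upper 50% of V5 and 51.9% where the middle base had to lie inside H3K27ac. The share with RNAPOL2 elsewhere in the windows reached was 9.49% at 1 kb, 34.5% at 5 kb, 34.7% with protein-coding transcripts, 17.3% without RNAPOL2 within 1 kb and 19.3% with the upper 50% of RNAPOL2.

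Against distal peaks, the odds ratio of TGACGTCA passed the threshold at 1.79 (1 kb), 1.58 (no RNAPOL2 within 1 kb), 1.61 (none in the windows reached), 1.91 (upper 50% of RNAPOL2) and 1.92 (central 200 bp). That of the variants turned below 1 at 0.863 (1 kb), 0.986 (5 kb), 0.932 (protein-coding transcripts), 0.990 (none in the windows reached) and 0.826 (upper 50% of RNAPOL2), and only the last passed the test (adjusted p = 0.0152, Fisher's exact test). With the upper 50% of RNAPOL2, TGAGTCA (0.732) and strings (0.649) also passed. Between acetylated and other peaks, odds ratios near 1 turned for variants at 1.00 (1 kb), 1.03 (upper 50% of V5) and 1.03 (whole peak), and for TGAGTCA at 0.831 (1 kb), 0.896 (5 kb), 0.935 (protein-coding transcripts), 0.974 (no RNAPOL2 within 1 kb), 0.888 (upper 50% of RNAPOL2), 0.965 (whole peak) and 0.906 (central 200 bp). With the upper 50% of RNAPOL2 that of TGACGTCA was 1.05 and that of CpG-rich sequence 2.40 (adjusted p = 0.00493, Fisher's exact test), and CpG-rich sequence gave 1.74 with the middle base inside H3K27ac. Of the restrictions chosen after seeing the data, those to peaks without a TSS (0.633) and near gene 5′ ends (0.645) ended the call of a lower TGACGTCA share against fusion peaks with RNAPOL2. The causes were not tested.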

Other observations

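Neuronal and receptor gene families held a few further peaks, at shares to be read beside the 2.15% of all coding genes. Of 208 ion channel genes, 6 (2.88%) were reached by a polymerase-free fusion peak, among them Scn10a (score 2131) and the potassium channel genes Kcnk1 (523) and Kcnk5 (238). These 3 peaks overlapped H3K27ac, and 5 of the 6 genes had RNAPOL2 at some promoter window, Scn10a being the exception. Of 156 genes of G protein-coupled receptors, 5 (3.21%) were reached, with the highest scores at the dopamine receptor gene Drd1 (512), the serotonin receptor gene Htr4 (449), Gpr171 (253) and the adrenergic receptor gene Adrb1 (142), of which Htr4 lacked H3K27ac. Drd1 and Adrb1 had RNAPOL2 in the same promoter window as the peak, and the other receptor genes had none in the gene. Of 69 axon guidance genes, 3 (4.35%) were reached: the ephrin receptor gene Epha2 scored 1177 upstream of its start with H3K27ac, and Robo1 (289) and Sema4f (76) were reached at internal TSSs. All 3 had RNAPOL2 at a promoter, for Epha2 and Sema4f in the same window as the peak. In the HOXA cluster, a single peak (score 84) reached both Hoxa7 and Hoxa9, 2 of 39 HOX genes, with RNAPOL2 in the same promoter window.

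Other families had low counts. Of 375 solute carrier genes 6 (1.6%) were reached, led by Slc23a2 (665), Slc45a4 (428), Slc1a7 (253) and Slc7a1 (184), and of 386 zinc finger genes 3 (0.777%) were reached, Zfp365 with 2 peaks (875 and 806), Zfp827 (122) and Zfp503 (94). Single genes were reached among 22 phosphodiesterases (Pde1c, 289), 86 growth factors (Fgf1, 469), 48 genes of the WNT pathway (Lrp6, 230), 125 synaptic adhesion genes (Cdh13, 103) and 14 immune markers (Fcgr3, 68). RNAPOL2 was called at a promoter of 3 of the 6 solute carrier genes and of all 3 zinc finger genes. Of the single genes, Fgf1, Lrp6, Cdh13 and Fcgr3 had it at a promoter and Pde1c did not. No peak reached any of the 1135 olfactory receptor, 72 ribosomal protein, 44 collagen, 38 MAPK feedback, 25 skeletal muscle, 12 fibroblast or 11 endothelial genes. Any fusion peak reached 23 of the 72 ribosomal protein genes and 14 of the 38 MAPK feedback genes (31.9% and 36.8%), compared with 16.6% of all coding genes. These counts were not tested.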
